A study of Mus musculus with 28 samples.

Results

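The genes described here are 33 that make fatty acids and build them into triglyceride in the liver, together with the regulators that switch them on: *Srebf1*, *Mlxipl*, *Thrsp*, *Pklr*, *Slc25a1*, *Acly*, *Acss2*, *Aacs*, *Me1*, *Acaca*, *Acacb*, *Fasn*, *Elovl1*, *Elovl2*, *Elovl3*, *Elovl5*, *Elovl6*, *Scd1*, *Scd2*, *Fads1*, *Fads2*, *Acsl3*, *Acsl5*, *Gpam*, *Agpat2*, *Agpat3*, *Lpin1*, *Lpin2*, *Lpin3*, *Dgat1*, *Dgat2*, *Mogat1*, and *Pnpla3*. They were chosen by symbol for their place in the pathway. All 33 were present among the 21935 genes of the counts table, and all 33 were among the 12580 genes with enough reads to test.

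In the liver, surplus sugar is turned into cytosolic acetyl-CoA, acetyl-CoA carboxylase and fatty acid synthase turn that into palmitate, and elongases and desaturases lengthen and unsaturate the product before acyltransferases attach it to glycerol. Insulin drives the pathway through SREBP1c (from *Srebf1*) and glucose drives it through ChREBP (from *Mlxipl*). The nuclear bile acid receptor FXR, the target of the drugs tested, is known to restrain SREBP1c in mouse liver through the repressor SHP.

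Messenger RNA was sequenced from the livers of 28 male B6.V-Lepob/JRj mice, which lack functional leptin (ob/ob) in every tissue and become obese. They were 5 weeks old when bought and ate the AMLN diet for 14 weeks before treatment, a diet that produces fatty liver through its fat, fructose, and cholesterol. For 2 weeks, 10 mice then received vehicle by mouth once a day, 9 received obeticholic acid (OCA) at 30 mg/kg, and 9 received INT-787 at 30 mg/kg. OCA is a bile acid analog that activates FXR, and INT-787 is a second FXR agonist. Every group carried the mutation and ate the diet, so the comparisons were made within this model, with no lean or chow-fed mice.

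Libraries held 1009593 to 22421506 counted reads per mouse (median 14864947), and the smallest was vehicle replicate 6. Vehicle replicate 5 stood apart in another way. In 128 genes that overlap a gene on the opposite strand and had few counts beside it in most mice, the counts were divided by the count that the partner's reads would give over the shared bases. That ratio was 0.760 in vehicle replicate 5, against 0.0199 to 0.0293 in the other 27 mice, and the count of a gene that overlaps an opposite-strand gene is uncertain in that mouse. Without vehicle replicates 5 and 6, 8, 5, and 4 members passed in the 3 comparisons, as with them. Hepatocyte markers summed to medians of 90101 CPM (counts relative to the scaled library total) in the vehicle mice, 134192 in the OCA mice, and 125165 in the INT-787 mice, and the tissue was liver by those markers, of which 1 of 5 tested was higher with INT-787 and 2 with OCA than with vehicle. Stellate and myofibroblast markers summed to 1009 to 2201 CPM in the vehicle mice, 1032 to 2960 CPM in the OCA mice, and 282 to 959 CPM in the INT-787 mice, with 6 of 7 lower under INT-787 than under vehicle. Macrophage markers summed to 248 to 376, 206 to 468, and 163 to 294 CPM in the same order, with 3 of 6 lower under INT-787, and 2 of 5 endothelial markers were lower too. Directly between the drugs, 4 of 7 stellate and 3 of 6 macrophage markers were lower in the INT-787 mice. In bulk tissue, fewer cells of a type and less RNA per cell cannot be told apart, and the part of these shifts in the results below was not tested.

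Lipogenic genes did not move as a block. Against vehicle, INT-787 raised *Thrsp*, *Acly*, *Acss2*, *Fasn*, and *Agpat3* and lowered *Me1*, *Scd1*, and *Mogat1*. OCA raised *Srebf1* and lowered *Me1*, *Acacb*, *Elovl6*, and *Mogat1*. Of these genes, only *Acss2* and *Fasn* also passed directly between the drugs. With INT-787 against vehicle, 8 of 33 members passed, where 19.6% of all tested genes did, and 5 rose and 3 fell, against 10.2% and 9.48% of all genes. A gene passed when its p from edgeR's quasi-likelihood test, adjusted by the Benjamini-Hochberg method across the 12580 genes, was at most 0.05. With OCA against vehicle 5 members passed, where 6.6% of all genes did, and 1 rose and 4 fell, against 4.15% and 2.45%. Directly between the drugs 4 members passed, where 5.38% of all genes did, and 4 were higher with INT-787 and 0 lower, against 2.19% and 3.19%. With single mice left out, those 4 became 2 (without OCA replicate 1 or 6 or INT-787 replicate 1) to 6 (without INT-787 replicate 8), and the 677 genes changed in all became 443 (without OCA replicate 8) to 888. Upper-quartile scaling moved the share of higher genes among all called genes from 51.7% to 37.5% with INT-787 and from 62.9% to 52.3% with OCA. Groups that did not overlap at all were seen for 0, 1, and 1 members, against 2.66%, 0.89%, and 0.509% of all genes. At an unadjusted p under 0.05, 12, 13, and 10 members passed in the 3 comparisons, where 32.3%, 18.5%, and 18.9% of all genes did.

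The median log2 fold change of the members was 0.12 with INT-787 and -0.11 with OCA, beside -0.0010 and 0.018 over all tested genes. Between INT-787 and OCA the median was 0.24 beside -0.0065 over all genes, and 26 of the 33 members lay on the higher side. Both drugs were compared with the same 10 vehicle mice, so their fold changes share that error. *Me1* and *Mogat1* fell with both drugs.

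**Figure D1:**
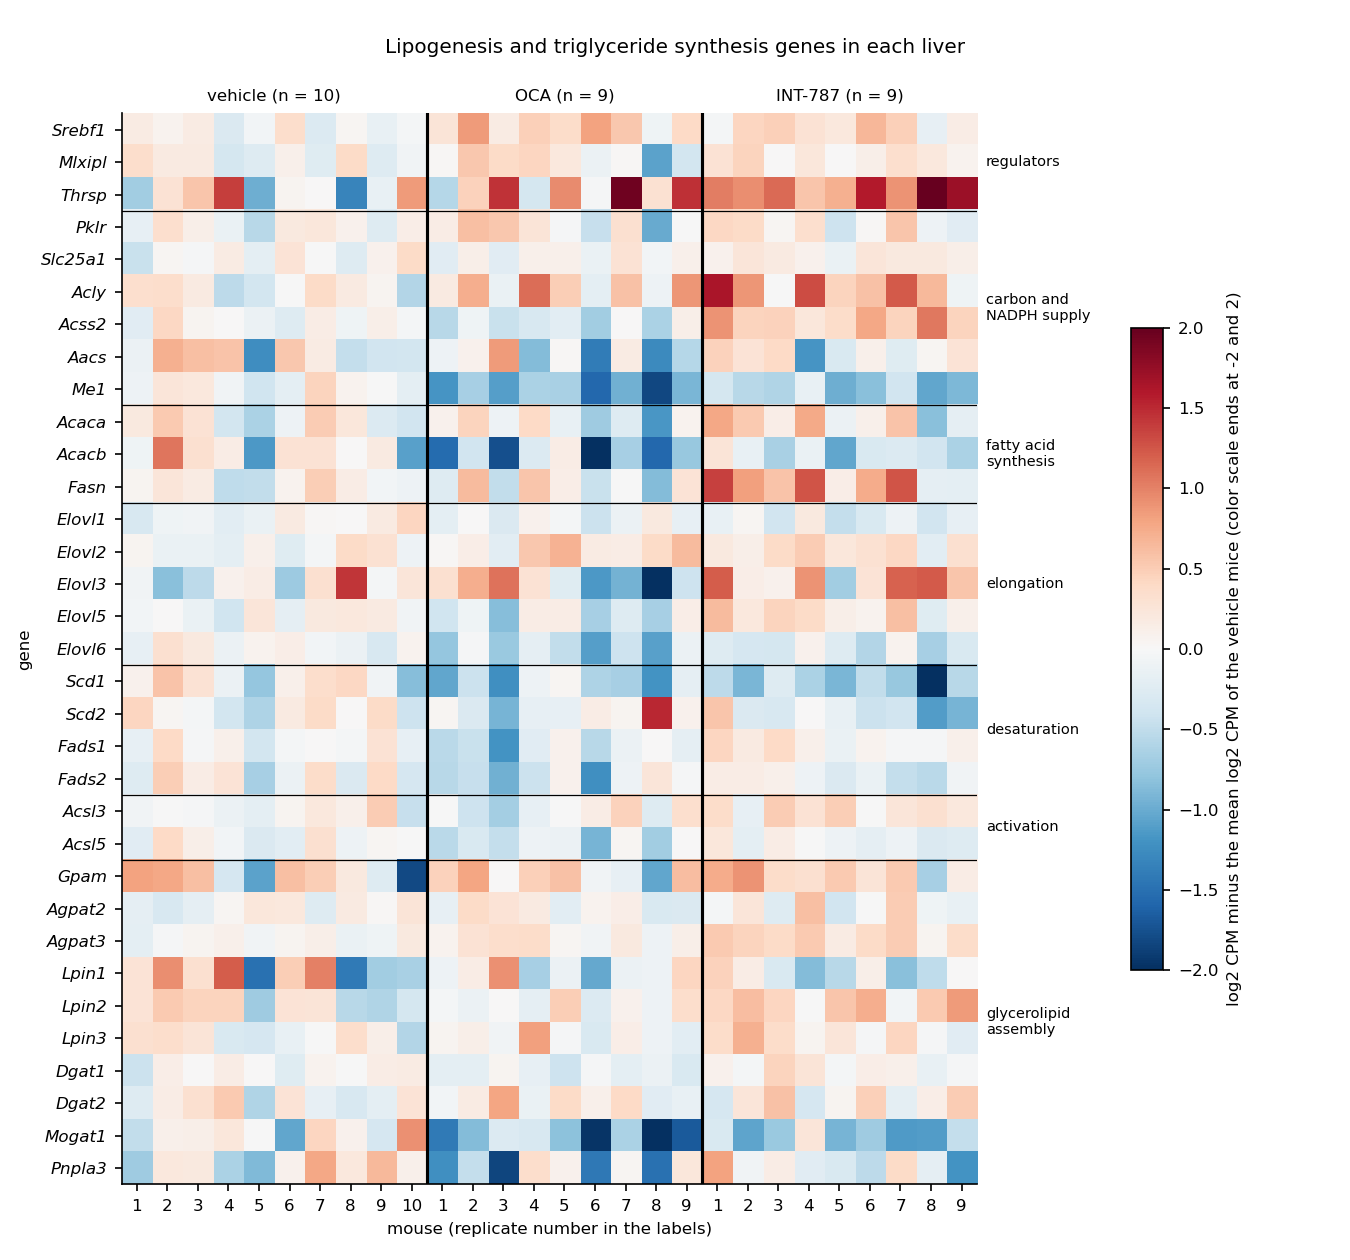
Each cell is 1 mouse (columns, by group and replicate number) and 1 gene (rows, by role), colored by log2 CPM minus the mean log2 CPM of the 10 vehicle mice, red higher and blue lower, with the color scale ending at -2 and 2. *Acss2* is red in all 9 INT-787 mice, *Me1* is blue in all 18 treated mice, and several OCA mice are blue across many genes, replicates 6 and 8 most of all.

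**Figure D2:**
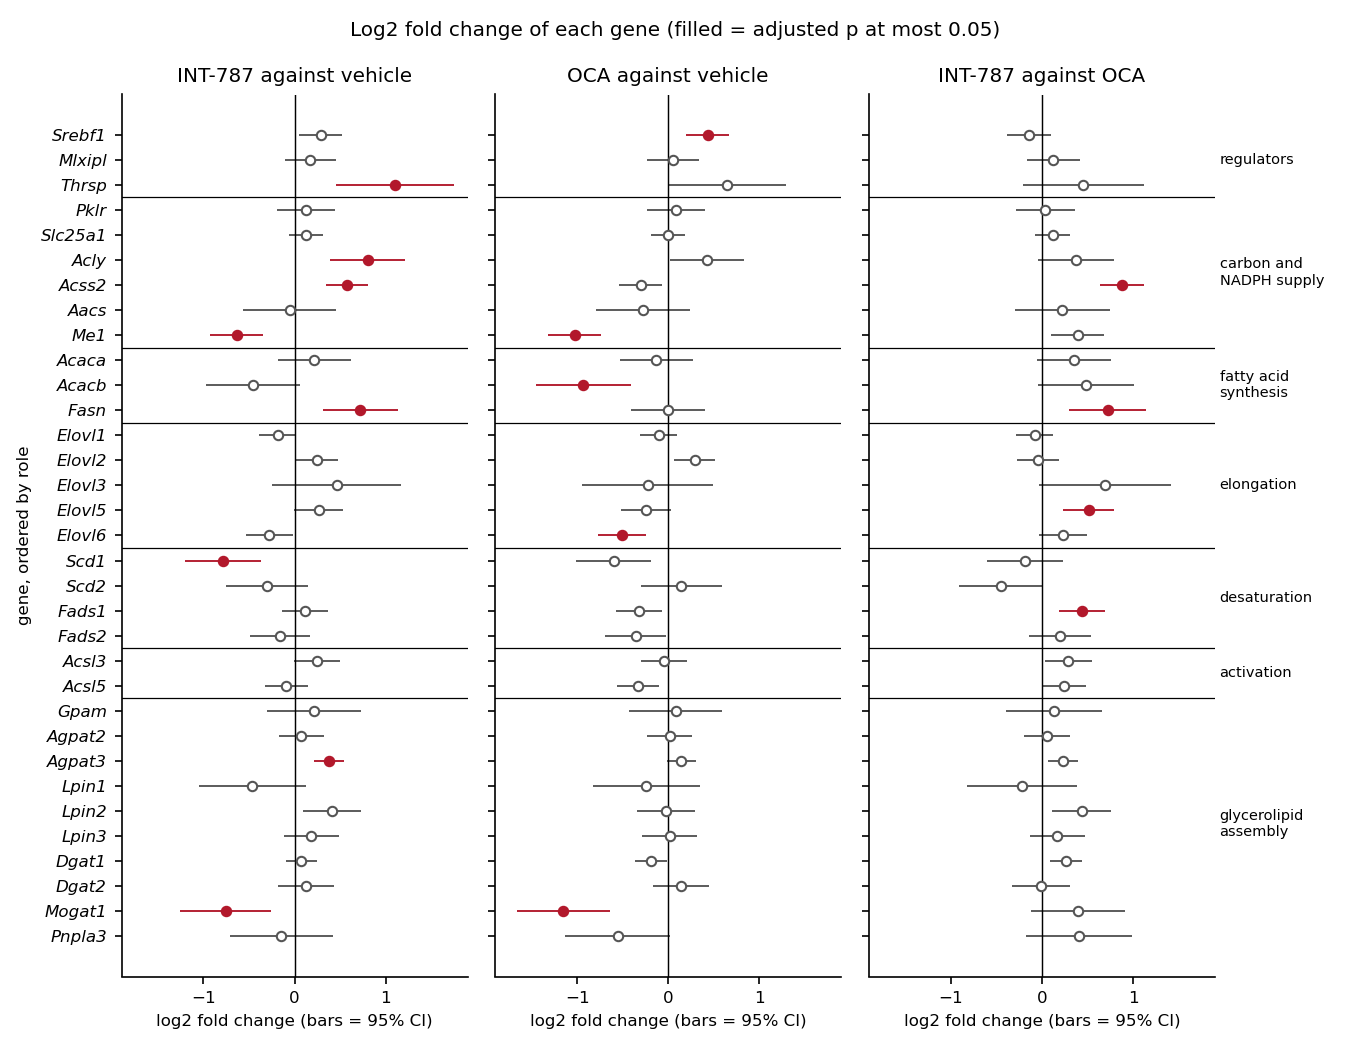
Points are the log2 fold change of each gene (rows, by role) in each comparison (panels), bars are 95% confidence intervals, and filled red points have an adjusted p of at most 0.05. The filled points number 8, 5, and 4, and in the right panel all 4 lie above 0.

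The members covered a wide range of levels. To set genes beside each other, CPM was divided by the length of the gene's merged exons. In the vehicle mice the level ran from 1.69 ± 0.372 CPM per kb for *Lpin3* and 1.80 ± 0.654 for *Pnpla3* to 8693 ± 2548 for *Scd1* (mean ± SD, n = 10). *Scd1* alone took 4.48% ± 1.40 of all counted reads in the vehicle mice (SD, n = 10), 2.73% ± 0.803 in the OCA mice, and 2.39% ± 0.580 in the INT-787 mice (SD, n = 9 each). All 33 members together took 5.58%, 3.71%, and 3.61% of the reads.

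Within enzyme families 1 or 2 members carried most of the message per kb. *Elovl5*, at 519 ± 71.9 CPM per kb in the vehicle mice, stood above *Elovl2* at 154 ± 23.9, and *Elovl3* was lowest at 4.28 ± 2.35. *Dgat2* (149 ± 36.0) exceeded *Dgat1* (8.64 ± 1.08), and *Acsl5* (134 ± 21.8) exceeded *Acsl3* (7.81 ± 1.42). Among the lipins, *Lpin2* stood at 24.8 ± 7.70, *Lpin1* at 16.2 ± 9.46, and *Lpin3* at 1.69 ± 0.372. *Lpin1* and *Lpin2* did not differ beyond their spread. *Acaca* (9.32 ± 2.56) and *Acacb* (14.1 ± 5.97) also lay within each other's spread. The family orders held in both treated groups, with 1 exception, *Acacb*, whose mean per kb fell below that of *Acaca* in the OCA mice (7.38 ± 3.77 against 8.52 ± 2.70) and the INT-787 mice (10.3 ± 2.61 against 10.9 ± 3.55).

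**Figure D3:**
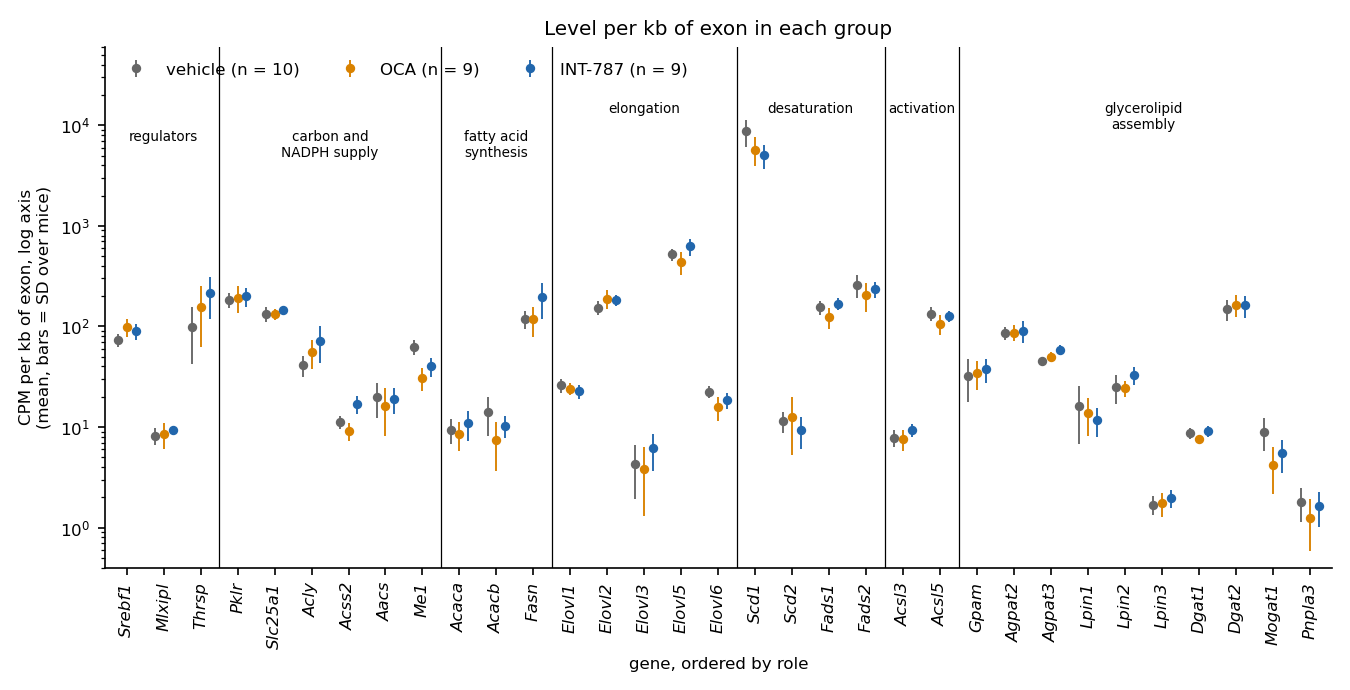
Mean CPM per kb of exon (log axis, bars are the SD over mice) for each gene in vehicle (gray), OCA (orange), and INT-787 (blue) mice, ordered by role. *Scd1* is the highest and *Elovl5* the next in each group, and *Lpin3* and *Pnpla3* are the lowest 2.

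Among the regulators, *Srebf1* (ENSMUSG00000020538, chr11:60199089-60222581, minus strand in GRCm38) encodes SREBP1, whose 1c form drives the fatty acid genes. *Srebf1* ranged from 336 to 526 CPM (median 411) in the vehicle mice, from 387 to 737 CPM (median 543) in the OCA mice, and from 365 to 650.0 CPM (median 502) in the INT-787 mice. The groups overlapped, with 6 of 9 OCA mice and 4 of 9 INT-787 mice above every vehicle mouse. The log2 fold change was 0.43 ± 0.12 with OCA (adjusted p = 0.017) and 0.29 ± 0.12 with INT-787 (adjusted p = 0.077), so only the first passed. Without vehicle replicate 6, INT-787 replicate 1, or INT-787 replicate 8, the second passed too, at adjusted p = 0.036 to 0.049. The direct difference, INT-787 minus OCA, was -0.15, with a 95% interval of -0.39 to 0.09.

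*Mlxipl* (ENSMUSG00000005373, chr5:135089890-135138382, plus strand) encodes ChREBP, the glucose-sensing regulator. *Mlxipl* ranged from 35.0 to 58.2 CPM (median 45.1) in the vehicle mice, from 21.2 to 65.0 CPM (median 45.3) in the OCA mice, and from 44.9 to 60.8 CPM (median 51.8) in the INT-787 mice, and the 9 INT-787 mice sat within a narrower band than the OCA mice, whose lowest value came from replicate 8. No comparison passed, with log2 fold changes of 0.18 ± 0.14 with INT-787, 0.05 ± 0.14 with OCA, and 0.13 ± 0.14 between them. The count does not separate the forms of *Mlxipl* or of *Srebf1* that start at different promoters.

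*Thrsp* (ENSMUSG00000035686, chr7:97412938-97417730, minus strand) encodes Spot 14, a lipogenic protein that responds to thyroid hormone and carbohydrate. *Thrsp* ranged from 75.6 to 490.3 CPM (median 192) in the vehicle mice, from 127 to 728 CPM (median 258) in the OCA mice, and from 275 to 938 CPM (median 384) in the INT-787 mice. It was among the more variable members, and 3 of 9 INT-787 mice and 3 of 9 OCA mice lay above every vehicle mouse. INT-787 raised it by 1.10 ± 0.32 on the log2 scale (2.15-fold, adjusted p = 0.014), the largest rise of any member in any comparison. With OCA the value was 0.65 ± 0.32 (adjusted p = 0.270), and INT-787 minus OCA was 0.45 (95% interval -0.21 to 1.12).

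**Figure D4:**
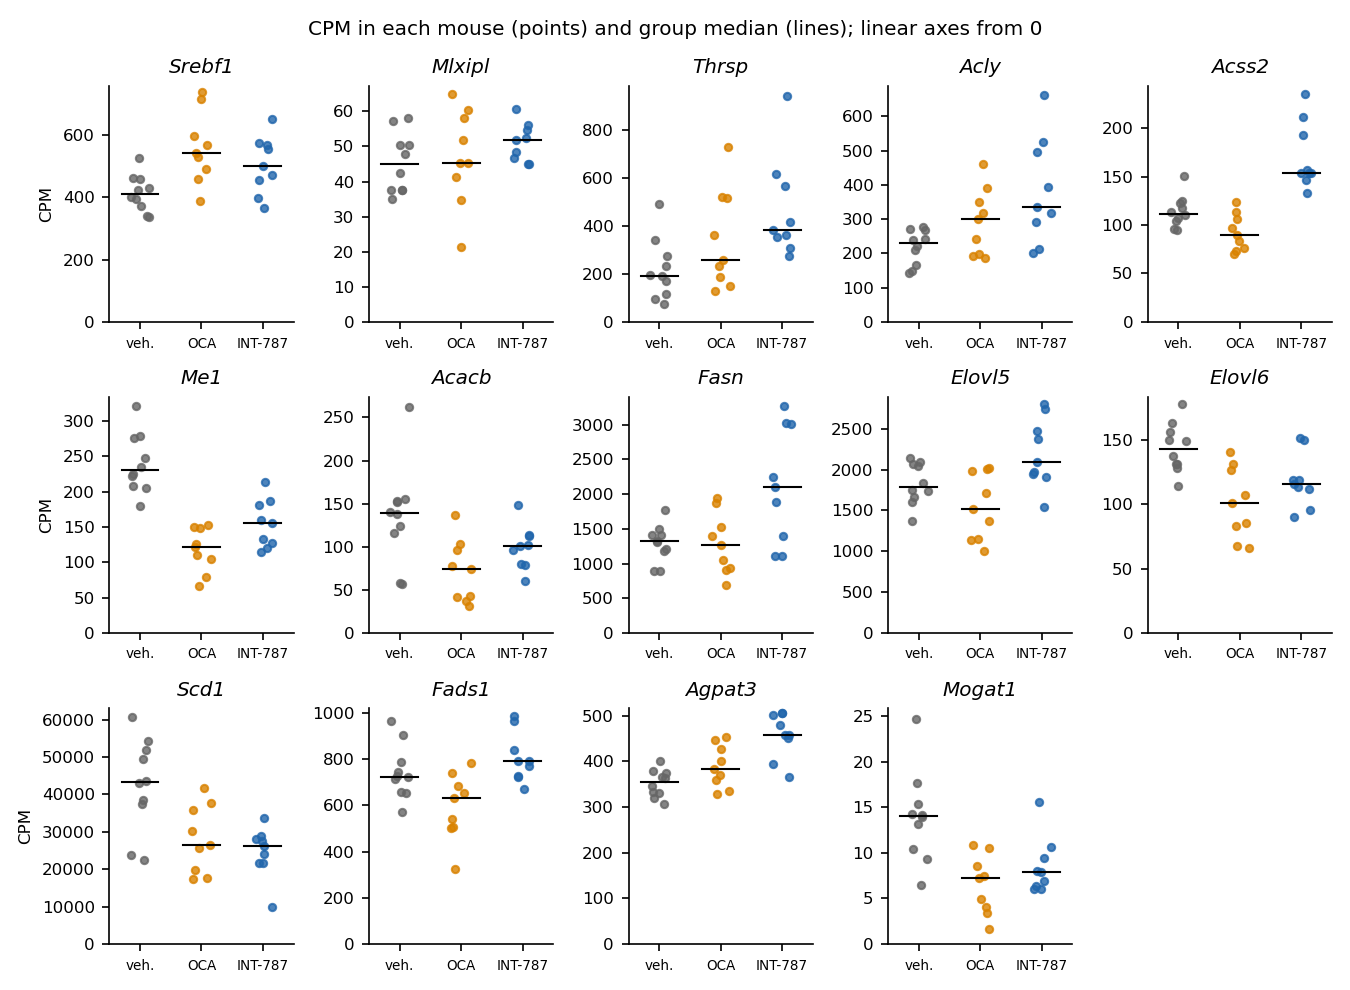
CPM of 14 genes, those that passed in at least 1 comparison and *Mlxipl*, with 1 point per mouse, lines at the group medians, and linear axes from 0. The INT-787 points of *Acss2* all lie above the OCA points, the OCA points of *Me1* all lie below the vehicle points, and in the other panels the groups overlap.

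The 250 bases before the RefSeq gene start were read for the 27 members that matched the promoter table (GRCm38.p6), some with several starts, 38 windows in all. *Scd1*, *Scd2*, *Fads1*, *Elovl3*, *Dgat1*, and *Dgat2* were not matched. Searched on both strands were the sterol regulatory element TCACNCCAC of SREBP, the E-box CACGTG, the CCAAT box CCAAT of NF-Y, the GC box GGGCGG of Sp1, and the DR4 and IR1 hexamer repeats of nuclear receptors, the second of which is the FXR type. The sterol regulatory element was found in 1 member, *Mlxipl*, and in 1.05% of all 32851 promoters. CACGTG was found in 4 members (*Elovl5*, *Lpin2*, *Mlxipl*, and *Slc25a1*) against 6.02% of all promoters. CCAAT was found in 17 of the 38 windows (16 members) against 33.8% of all promoters, and GGGCGG in 18 windows (15 members) against 32.7%. The nuclear receptor repeats were in 0 members and in 0.0152% and 0.00609% of all promoters. These are letter matches, not sites. Windows are printed for the 3 matched members that were higher with INT-787 than with OCA and for *Me1*, which fell with both drugs, each 5′ to 3′ on the gene's strand and ended where the GENCODE gene begins. Capitals mark the E-box, the CCAAT box, and the GC box, on either strand. In *Fasn*, CCAATTGG holds 2 overlapping CCAAT boxes, 1 per strand, and in *Me1* the last 3 capitals open a GC box that runs past the end.
Acss2, chr2:155517793-155517947, plus strand: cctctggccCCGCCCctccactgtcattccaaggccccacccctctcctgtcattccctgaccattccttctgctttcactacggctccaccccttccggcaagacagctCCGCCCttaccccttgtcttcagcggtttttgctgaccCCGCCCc
Fasn, chr11:120824548-120824797, minus strand: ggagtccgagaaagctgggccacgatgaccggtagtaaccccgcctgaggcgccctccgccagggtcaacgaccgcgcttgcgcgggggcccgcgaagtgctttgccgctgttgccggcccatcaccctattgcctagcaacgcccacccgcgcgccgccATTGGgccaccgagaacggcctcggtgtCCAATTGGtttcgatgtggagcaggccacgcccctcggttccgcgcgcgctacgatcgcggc
Elovl5, chr9:77917115-77917363, plus strand: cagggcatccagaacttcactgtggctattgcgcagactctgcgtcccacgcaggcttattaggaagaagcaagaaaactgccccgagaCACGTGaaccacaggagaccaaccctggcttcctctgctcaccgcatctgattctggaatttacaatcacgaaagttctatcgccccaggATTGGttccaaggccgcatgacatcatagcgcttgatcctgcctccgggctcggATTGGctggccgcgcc
Me1, chr9:86695954-86696164, minus strand: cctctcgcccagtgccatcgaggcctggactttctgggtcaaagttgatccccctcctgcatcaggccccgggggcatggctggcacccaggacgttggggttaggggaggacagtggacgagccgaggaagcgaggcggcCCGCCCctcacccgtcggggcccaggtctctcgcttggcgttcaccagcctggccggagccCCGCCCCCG
Of these printed stretches, *Acss2* holds 3 GC boxes, *Fasn* 3 CCAAT boxes, *Elovl5* 1 E-box and 2 CCAAT boxes, and *Me1* 2 whole GC boxes.

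The enzymes that supply acetyl-CoA and NADPH moved in opposite directions under INT-787, with *Acly* and *Acss2* up and *Me1* down. *Acly* (ENSMUSG00000020917, chr11:100476353-100528000, minus strand) encodes ATP citrate lyase, which makes cytosolic acetyl-CoA from citrate. *Acly* ranged from 141 to 278 CPM (median 231) in the vehicle mice, from 186 to 461 CPM (median 299.8) in the OCA mice, and from 201 to 663 CPM (median 335) in the INT-787 mice. Of the treated mice, 7 of 9 INT-787 and 5 of 9 OCA mice lay above every vehicle mouse, and the drug groups overlapped. The rise was 0.80 ± 0.20 with INT-787 (1.74-fold, adjusted p = 0.0044), and the value was 0.42 ± 0.20 with OCA (adjusted p = 0.245). Between the drugs the difference was 0.38 (95% interval -0.04 to 0.80), which does not show that the drugs differ or act alike.

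*Acss2* (ENSMUSG00000027605, chr2:155517948-155585724, plus strand) encodes the cytosolic acetyl-CoA synthetase, which makes acetyl-CoA from acetate and is a classical SREBP target. *Acss2* ranged from 94.7 to 151 CPM (median 112) in the vehicle mice, from 70.2 to 123 CPM (median 90.2) in the OCA mice, and from 133 to 235 CPM (median 154) in the INT-787 mice. The INT-787 and OCA mice did not overlap, which was true of 0.199% of all tested genes in this direction, and 7 of 9 INT-787 mice lay above every vehicle mouse. INT-787 exceeded OCA by 0.88 ± 0.12 (1.84-fold, adjusted p = 1.2e-05), the member with the largest direct difference. Against vehicle the value was 0.58 ± 0.11 with INT-787 (adjusted p = 4.3e-04) and -0.30 ± 0.12 with OCA (adjusted p = 0.119), on opposite sides of 0. The direct difference and the rise with INT-787 passed in every alternative fit run. The OCA value passed only when sets of neighboring sample numbers entered as a factor (adjusted p = 0.012). *Acss2* exons overlap opposite-strand exons over 927 bp, and an estimated 17.8% of its counts in vehicle replicate 5 could stem from them.

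*Me1* (ENSMUSG00000032418, chr9:86581371-86695953, minus strand) encodes cytosolic malic enzyme, a source of NADPH for fatty acid synthesis. *Me1* ranged from 179 to 321 CPM (median 230.2) in the vehicle mice, from 66.9 to 153 CPM (median 121) in the OCA mice, and from 115 to 213 CPM (median 156) in the INT-787 mice. Every OCA mouse lay below every vehicle mouse, as for 0.286% of all tested genes, and 6 of 9 INT-787 mice did. *Me1* fell by 51.0% with OCA (log2 fold change -1.03 ± 0.14, adjusted p = 8.2e-06) and fell by 35.6% with INT-787 (-0.64 ± 0.14, adjusted p = 0.0014). The direct difference for *Me1* was 0.39 (95% interval 0.10 to 0.69, adjusted p = 0.111). Of the 75-base windows in *Me1* transcripts, 16.4% also occur in transcripts of the genes *Gm7049* and *Gm7329*, so the counting could have split some reads.

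The other 3 supply genes passed in no comparison. *Pklr* (liver pyruvate kinase, a ChREBP target) had log2 fold changes of 0.12 with INT-787 and 0.09 with OCA. *Slc25a1*, which encodes the mitochondrial citrate carrier, gave 0.12 and 0.00, with standard errors of 0.09. *Aacs*, the acetoacetyl-CoA synthetase gene, gave -0.05 and -0.28, and it varied more, from 26.8 to 128 CPM within the OCA mice alone.

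Of the 3 fatty acid synthesis genes, 1 rose with INT-787 and 1 fell with OCA, where 10.2% and 2.45% of all tested genes did. *Fasn* (ENSMUSG00000025153, chr11:120805846-120824547, minus strand) encodes fatty acid synthase. *Fasn* ranged from 890.0 to 1778 CPM (median 1319) in the vehicle mice, from 692 to 1951 CPM (median 1261) in the OCA mice, and from 1103 to 3270.3 CPM (median 2106) in the INT-787 mice. The INT-787 mice spread widely, 6 of 9 lay above every vehicle mouse, and the lowest lay inside the vehicle range. *Fasn* rose by 0.72 ± 0.20 with INT-787 (1.65-fold, adjusted p = 0.010) and stood at -0.00 ± 0.20 with OCA. *Fasn* was higher with INT-787 than with OCA by 0.72 ± 0.21 (adjusted p = 0.033). That direct call was lost without OCA replicate 1, 3, 6, or 8 or INT-787 replicate 1, 4, or 7 (adjusted p = 0.051 to 0.079) and when the 2 drug groups were fitted alone (adjusted p = 0.070).

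*Acacb* (ENSMUSG00000042010, chr5:114146535-114250761, plus strand) encodes acetyl-CoA carboxylase 2, whose malonyl-CoA is known to restrain mitochondrial fatty acid oxidation. *Acacb* ranged from 56.4 to 262 CPM (median 139) in the vehicle mice, from 30.7 to 137 CPM (median 73.6) in the OCA mice, and from 60.2 to 148 CPM (median 100.4) in the INT-787 mice. Only 4 of 9 OCA mice lay below every vehicle mouse, since 2 vehicle mice were low too. *Acacb* fell by 47.6% with OCA (log2 fold change -0.93 ± 0.26, adjusted p = 0.021). The call was lost without vehicle replicate 2, the highest vehicle mouse (adjusted p = 0.058). With INT-787 the value was -0.45 ± 0.25 (adjusted p = 0.223), and INT-787 minus OCA was 0.48 (95% interval -0.05 to 1.01).

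*Acaca*, which encodes acetyl-CoA carboxylase 1, the carboxylase of fatty acid synthesis itself, passed in no comparison. *Acaca* ranged from 98.7 to 222 CPM (median 159) in the vehicle mice, from 68.6 to 209 CPM (median 143) in the OCA mice, and from 86.1 to 264 CPM (median 169) in the INT-787 mice, with log2 fold changes of 0.22 ± 0.20 with INT-787 and -0.13 ± 0.20 with OCA. Of its 75-base windows, 26.8% also occur in transcripts of other annotated genes, among them *Gm5182* and *Gm42553*.

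*Fasn* and *Srebf1* were each set against the other members from mouse to mouse. Over the mice of a group, log2 CPM of *Fasn* correlated with *Acaca* at r = 0.90 in the vehicle mice (Spearman's rho 0.94, exact permutation p adjusted over 189 relations = 0.014, n = 10). In the INT-787 mice the same pair gave r = 0.93 (rho 0.97, adjusted exact permutation p = 0.0068, n = 9). In the OCA mice it gave r = 0.86 (rho 0.77), which missed at an adjusted exact permutation p of 0.052. Without the 2 mice farthest from the median of *Fasn* the values were 0.88, 0.94, and 0.68, and without vehicle replicates 5 and 6 the vehicle value was 0.87.

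*Me1* also tracked *Fasn*, at r = 0.91 in the OCA mice (rho 0.87, adjusted exact permutation p = 0.027) and 0.91 in the INT-787 mice (rho 0.92, adjusted exact permutation p = 0.038). In the OCA mice *Acly* (r = 0.91, rho 0.87) and *Elovl6* (r = 0.94, rho 0.88) passed as well, at adjusted exact permutation p of 0.038 and 0.027. By rank the 3 OCA relations missed, at adjusted exact permutation p of 0.085 for *Me1* and *Acly* and 0.073 for *Elovl6*. Without the 2 mice farthest in *Fasn*, the OCA values were 0.83 for *Me1*, 0.98 for *Acly*, and 0.89 for *Elovl6*, and the INT-787 value for *Me1* was 0.89. Thus 6 of 189 relations passed by r, all with *Fasn*. By rank alone, *Scd1* in the vehicle mice (r = 0.72, rho 0.89, adjusted exact permutation p = 0.0496) and *Agpat3* in the INT-787 mice (r = 0.85, rho 0.93, adjusted exact permutation p = 0.047) passed with *Fasn* as well, while by r they missed (adjusted exact permutation p of 0.157 and 0.052, and r of 0.72 and 0.96 without the 2 mice farthest in *Fasn*). *Srebf1* correlated with *Fasn* at r = 0.25 in the vehicle mice (rho 0.37), 0.60 in the OCA mice (rho 0.65), and 0.34 in the INT-787 mice (rho 0.20). Their adjusted exact permutation p were 0.768, 0.323, and 0.671, and leaving out 2 mice moved r to -0.32, 0.03, and -0.25. The labels name no batch, and sets of neighboring sample numbers held too few mice of 1 group for values within them.

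**Figure D5:**
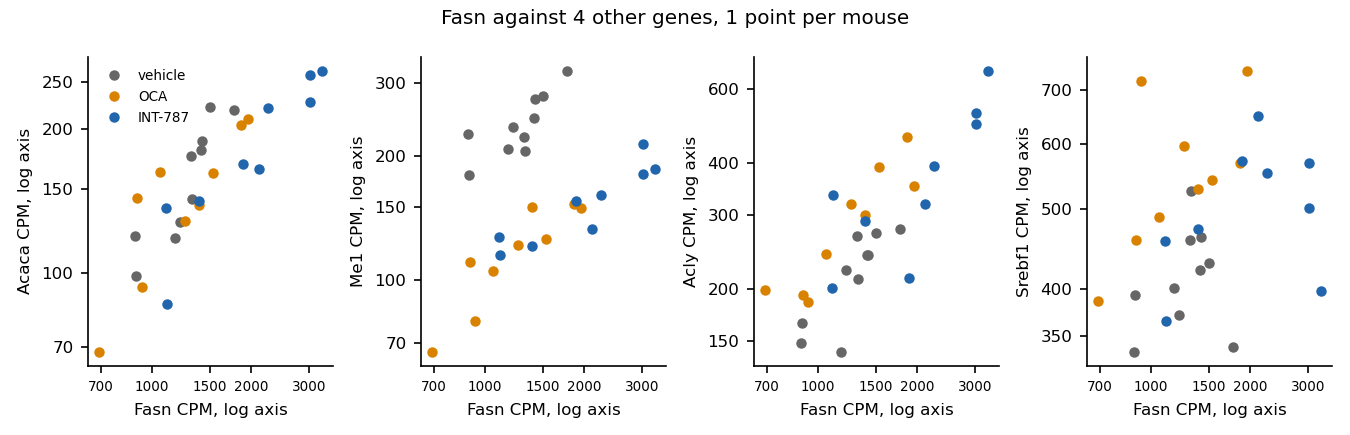
*Fasn* CPM (x axis) against *Acaca*, *Me1*, *Acly*, and *Srebf1* CPM (y axes, all log axes), with 1 point per mouse in vehicle (gray), OCA (orange), and INT-787 (blue). *Acaca* climbs with *Fasn* in each group, *Me1* climbs too but the treated mice run below the vehicle mice, and *Srebf1* is scattered.

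Elongation genes differed between the drugs at *Elovl5* and fell with OCA at *Elovl6*. *Elovl6* (ENSMUSG00000041220, chr3:129532355-129638495, plus strand) encodes the elongase that takes palmitate to stearate. *Elovl6* ranged from 114 to 178 CPM (median 143) in the vehicle mice, from 66.3 to 141 CPM (median 101) in the OCA mice, and from 90.2 to 152 CPM (median 116) in the INT-787 mice. Of the treated mice, 6 of 9 OCA and 4 of 9 INT-787 mice lay below every vehicle mouse. *Elovl6* fell by 29.7% with OCA (log2 fold change -0.51 ± 0.13, adjusted p = 0.011), and the value with INT-787 was -0.28 ± 0.13 (adjusted p = 0.128). The drugs differed by 0.23 (95% interval -0.03 to 0.50).

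*Elovl5* (ENSMUSG00000032349, chr9:77917364-77984519, plus strand) encodes an elongase of polyunsaturated fatty acids. *Elovl5* ranged from 1372 to 2143 CPM (median 1790.1) in the vehicle mice, from 1007 to 2014 CPM (median 1519) in the OCA mice, and from 1536 to 2798 CPM (median 2087) in the INT-787 mice. INT-787 exceeded OCA by 0.51 ± 0.14 (1.43-fold, adjusted p = 0.021), with 5 of 9 INT-787 mice above every OCA mouse. Neither drug passed against vehicle, at 0.27 ± 0.13 with INT-787 (adjusted p = 0.156) and -0.24 ± 0.13 with OCA (adjusted p = 0.334), on opposite sides of 0.

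*Elovl1*, *Elovl2*, and *Elovl3* passed in no comparison. *Elovl2*, an elongase of long polyunsaturated chains, had log2 fold changes of 0.25 with INT-787 and 0.29 with OCA, and *Elovl1*, an elongase of saturated chains, had -0.19 and -0.11. *Elovl3* was scarce, at from 0.372 to 16.3 CPM (median 6.47) in the OCA mice, and its interval for INT-787 minus OCA was wide (-0.03 to 1.42).

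Of the 4 desaturase genes, 1 fell with INT-787, 0 passed with OCA, and 1 was higher with INT-787 than with OCA. The matching shares of all tested genes were 9.48%, 6.6%, and 2.19%. *Scd1* (ENSMUSG00000037071, chr19:44394455-44407879, minus strand) encodes the main stearoyl-CoA desaturase of the liver, which makes oleate. *Scd1* ranged from 22472 to 60604 CPM (median 43362) in the vehicle mice, from 17269.7 to 41704 CPM (median 26420.4) in the OCA mice, and from 9972 to 33806 CPM (median 26118) in the INT-787 mice. The 2 drug medians lay close together, and 3 of 9 mice in each drug group lay below every vehicle mouse. *Scd1* fell by 42.1% with INT-787 (log2 fold change -0.79 ± 0.20, adjusted p = 0.0058). The value with OCA was -0.60 ± 0.20 (adjusted p = 0.072), which passed with DESeq2 (adjusted p = 0.026) and without vehicle replicate 5 or 10, OCA replicate 5, or INT-787 replicate 8 (adjusted p = 0.028 to 0.040). For *Scd1* the direct difference was -0.19 (95% interval -0.61 to 0.23). *Scd1* shares 3.15% of its 75-base windows with other genes, *Scd2* and *Scd3* among them.

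*Fads1* (ENSMUSG00000010663, chr19:10182888-10196877, plus strand) encodes the delta-5 desaturase, which completes arachidonate and eicosapentaenoate. *Fads1* ranged from 573 to 967 CPM (median 724) in the vehicle mice, from 323 to 781 CPM (median 631) in the OCA mice, and from 669 to 988 CPM (median 793) in the INT-787 mice. INT-787 exceeded OCA by 0.44 ± 0.13 (adjusted p = 0.033), with 5 of 9 INT-787 mice above every OCA mouse. The call was lost with upper-quartile scaling (adjusted p = 0.051), with the 2 drug groups fitted alone (adjusted p = 0.053), and without OCA replicate 1, 2, or 6 or INT-787 replicate 1 or 3 (adjusted p = 0.053 to 0.068). Against vehicle the values were 0.12 ± 0.12 with INT-787 and -0.32 ± 0.12 with OCA (adjusted p = 0.120). *Fads2*, the delta-6 desaturase gene, passed in no comparison, at -0.16 and -0.36, and *Scd2* passed in none, at -0.30 and 0.15.

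Of the 10 glycerolipid assembly genes, INT-787 raised 1 and lowered 1, where it raised 10.2% and lowered 9.48% of all tested genes. OCA lowered 1, against 2.45% of all genes, and 0 of the 2 activation genes passed. *Agpat3* (ENSMUSG00000001211, chr10:78269178-78352489, minus strand) encodes an acyltransferase that makes phosphatidic acid and remodels phospholipids. *Agpat3* ranged from 307 to 400.3 CPM (median 355) in the vehicle mice, from 328 to 453 CPM (median 382) in the OCA mice, and from 366 to 507 CPM (median 458) in the INT-787 mice, a narrow spread within each group. INT-787 raised it by 0.38 ± 0.08 (1.30-fold, adjusted p = 7.5e-04), with 7 of 9 mice above every vehicle mouse. OCA gave 0.14 ± 0.08 (adjusted p = 0.343), and INT-787 minus OCA was 0.24 (95% interval 0.07 to 0.40, adjusted p = 0.086). That direct difference passed with DESeq2 (adjusted p = 0.030) and without OCA replicate 3 or INT-787 replicate 8 (adjusted p = 0.046 to 0.049).

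*Mogat1* (ENSMUSG00000012187, chr1:78510991-78538173, plus strand) encodes a monoacylglycerol acyltransferase, scarce in normal liver and known to rise in fatty liver. *Mogat1* ranged from 6.44 to 24.8 CPM (median 14.1) in the vehicle mice, from 1.68 to 10.9 CPM (median 7.25) in the OCA mice, and from 5.99 to 15.5 CPM (median 7.90) in the INT-787 mice. Of the treated mice, 4 of 9 OCA and 3 of 9 INT-787 mice lay below every vehicle mouse. *Mogat1* fell by 55.0% with OCA (log2 fold change -1.15 ± 0.25, adjusted p = 0.0028), the deepest fall of any member. It fell by 40.8% with INT-787 (-0.76 ± 0.25, adjusted p = 0.028), a call that was lost without vehicle replicate 10 or INT-787 replicate 2, 7, or 8 (adjusted p = 0.0501 to 0.068). INT-787 minus OCA was 0.40 (95% interval -0.12 to 0.92). Of 6 genes listed as adipocyte markers, *Adipoq*, *Lep*, and *Retn* had 0 counts in every mouse. The rest of the list was *Plin1*, *Cfd*, and *Cidea*. Their sum was 35.4 to 93.7 CPM in vehicle mice, 1.80 to 27.6 in OCA mice, and 2.99 to 43.4 in INT-787 mice. Both of the 2 with enough reads to test fell with each drug. With *Adipoq* at 0 counts, these genes do not show that adipocytes were present. Their part in the *Mogat1* result was not tested.

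The other 8 assembly genes passed in no comparison. *Lpin2*, a phosphatidate phosphatase gene, had 0.41 ± 0.16 with INT-787 (adjusted p = 0.059) and -0.03 with OCA. Its INT-787 value passed with DESeq2 (adjusted p = 0.047), limma-voom (adjusted p = 0.039), and sets of sample numbers as a factor (adjusted p = 0.0073), and without vehicle replicate 2, 3, or 4 or INT-787 replicate 4 or 7 (adjusted p = 0.032 to 0.040). The direct difference for *Lpin2* was 0.44 ± 0.16 (95% interval 0.11 to 0.76, adjusted p = 0.108), which passed with the 2 drug groups fitted alone (adjusted p = 0.044) and with sets of sample numbers (adjusted p = 0.049). *Dgat1*, which with *Dgat2* encodes the enzymes of the last step to triglyceride, gave 0.26 between the drugs (adjusted p = 0.066). That value passed with DESeq2 (adjusted p = 0.036) and without vehicle replicate 1 or 10, OCA replicate 3, or INT-787 replicate 8 (adjusted p = 0.036 to 0.048). *Dgat2*, the more abundant of the pair per kb, gave -0.01, with a 95% interval of -0.33 to 0.30.

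*Gpam*, the mitochondrial glycerol-phosphate acyltransferase gene and an SREBP1c target, had 0.21 with INT-787 and 0.08 with OCA, within standard errors of 0.25. *Lpin1* gave -0.46 and -0.24, and it spread from 46.3 to 300.5 CPM within the vehicle mice, with -0.22 between the drugs (95% interval -0.82 to 0.38). *Agpat2* (0.07 and 0.02) and *Lpin3* (0.19 and 0.02) sat near 0. *Pnpla3*, the mouse counterpart of a human fatty liver risk gene, gave -0.15 and -0.55 at levels of 0.732 to 4.54 CPM in all mice. For the long-chain acyl-CoA synthetases, *Acsl3* gave 0.25 and -0.04, and *Acsl5* gave -0.09 and -0.33 (adjusted p = 0.083). The OCA value of *Acsl5* passed with upper-quartile scaling (adjusted p = 0.045), DESeq2 (adjusted p = 0.040), sample number sets (adjusted p = 0.049), and without OCA replicate 7 (adjusted p = 0.046).

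The drugs were 1 pair, compared at the same dose and time with p adjusted over all tested genes. INT-787 exceeded OCA at *Acss2*, *Fasn*, *Elovl5*, and *Fads1*, 1 gene each of acetyl-CoA supply, synthesis, elongation, and desaturation. *Acss2* and *Elovl5* passed in every alternative fit. The other 29 members did not pass, with values from -0.45 for *Scd2* (95% interval -0.91 to 0.01) to 0.69 for *Elovl3* (-0.03 to 1.42). Those intervals leave room for differences, so a missed threshold does not show that the drugs acted alike on these genes.

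Other genes of the pathway were read from 4 lists of 70 genes, of which 66 had enough reads to test. INT-787 raised 11 and lowered 7, where it raised 10.2% and lowered 9.48% of all tested genes. OCA raised 4 and lowered 4, against 4.15% and 2.45% of all genes. Between the drugs 3 were higher with INT-787 and 0 lower, against 2.19% and 3.19%. Of the 20 control genes of SREBP1c and ChREBP, 5 rose with INT-787 and 3 with OCA, and 0 fell with either, and the median log2 fold change of the list was 0.22 and 0.12, beside -0.0010 and 0.018 over all genes. *Nr0b2*, which encodes SHP, rose by 1.62 ± 0.19 (adjusted p = 2.0e-07) with INT-787 and 1.17 ± 0.19 (adjusted p = 1.0e-04) with OCA. *Insig1*, which encodes a protein that retains SREBP in the endoplasmic reticulum, rose by 0.91 ± 0.17 (adjusted p = 1.5e-04) and 0.66 ± 0.17 (adjusted p = 0.0100). *Mid1ip1*, a relative of *Thrsp*, rose with OCA by 0.49 ± 0.12 (adjusted p = 0.0098), and its value with INT-787 was 0.27 ± 0.12 (adjusted p = 0.123). *Scap*, the gene of the SREBP escort protein, rose by 0.37 ± 0.10 (adjusted p = 0.0078) with INT-787, as did *Irs2*, of insulin signaling, by 0.34 ± 0.12 (adjusted p = 0.041), and *Mlx*, the partner of ChREBP, by 0.27 ± 0.08 (adjusted p = 0.014).

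Sugar and NADPH supply held 16 further genes, with 3 up and 2 down under INT-787 and 1 up and 2 down under OCA. The shares of all tested genes were 10.2% up and 9.48% down with INT-787 and 4.15% up and 2.45% down with OCA. *Slc2a2*, the liver glucose transporter GLUT2, rose by 0.96 ± 0.09 (adjusted p = 2.1e-09) with INT-787 and 0.65 ± 0.09 (adjusted p = 1.3e-05) with OCA, and it was higher with INT-787 than with OCA by 0.32 ± 0.09 (adjusted p = 0.041). *Pdk4*, a kinase that restrains pyruvate dehydrogenase, fell with OCA, with a log2 fold change of -0.96 ± 0.21 (adjusted p = 0.0027), and its value with INT-787 was -0.36 ± 0.20 (adjusted p = 0.219). *Khk*, ketohexokinase of fructose entry, rose by 0.67 ± 0.14 (adjusted p = 7.0e-04) with INT-787, and its value with OCA was 0.44 ± 0.14 (adjusted p = 0.052). *G6pdx*, an NADPH source of the pentose phosphate path, fell with INT-787, at -0.45 ± 0.13 (adjusted p = 0.013). *Taldo1*, of the same path, fell with INT-787, at -0.29 ± 0.10 (adjusted p = 0.032), and with OCA, at -0.33 ± 0.10 (adjusted p = 0.032). *Pdha1*, a pyruvate dehydrogenase subunit gene named after its value was seen, was higher with INT-787 than with OCA by 0.30 ± 0.09 (adjusted p = 0.039).

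In the elongation and desaturation cycle 13 of 15 listed genes were tested, with 1 up and 3 down under INT-787 and 1 down under OCA. For this list and the next, the shares of all tested genes were 10.2% up and 9.48% down with INT-787 and 2.45% down with OCA. *Hsd17b12*, the ketoacyl-CoA reductase gene, fell, at -0.65 ± 0.10 (adjusted p = 8.8e-06) with INT-787 and -0.51 ± 0.10 (adjusted p = 5.9e-04) with OCA. With INT-787 *Fads3*, a gene of the desaturase family, fell, at -0.72 ± 0.23 (adjusted p = 0.022), as did *Hacd1*, of the dehydratase step, at -0.57 ± 0.17 (adjusted p = 0.014), and *Degs1*, a sphingolipid desaturase gene, rose by 0.24 ± 0.08 (adjusted p = 0.031). Among 17 tested activation and assembly genes 2 rose and 2 fell with INT-787 and 1 fell with OCA. *Mogat2*, a sister of *Mogat1*, rose with INT-787 by 1.78 ± 0.22 (adjusted p = 3.8e-07) and was higher than with OCA by 1.14 ± 0.21 (adjusted p = 0.0011), from a mean of 0.870 CPM in the vehicle mice and 1.47 in the OCA mice to 3.25 in the INT-787 mice. *Acsl4*, an acyl-CoA synthetase gene with a preference for arachidonate, fell, at -0.67 ± 0.12 (adjusted p = 1.0e-04) with INT-787 and -0.40 ± 0.12 (adjusted p = 0.036) with OCA. *Acsl1*, the main synthetase gene of the family in liver, fell with INT-787, at -0.40 ± 0.14 (adjusted p = 0.041), and *Lclat1*, a cardiolipin acyltransferase gene, rose by 0.27 ± 0.08 (adjusted p = 0.023). Some of these calls depended on single mice. With 1 mouse left out at a time, 12 of 28 fits ended the call of *Acsl1*, 12 that of *Acsl4* with OCA, and 11 that of *Irs2*. The direct calls of *Slc2a2* and *Pdha1* ended in 10 and 9 of those fits, *Taldo1* in 6 with INT-787 and 7 with OCA, *Degs1* in 5, and *Fads3* without vehicle replicate 9 (adjusted p = 0.062). Upper-quartile scaling ended the INT-787 calls of *Mlx*, *Lclat1*, *Irs2*, and *Degs1* (adjusted p = 0.059, 0.061, 0.082, and 0.123). Leaving out vehicle replicates 5 and 6 together ended those of *Lclat1*, *Irs2*, and *Degs1* (adjusted p = 0.080, 0.067, and 0.057).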

How the data were processed

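Poly(A) RNA from snap-frozen liver of 28 mice had been sequenced from stranded libraries in 75 cycles. The authors deposited raw counts of reads per Ensembl gene, 1 column per mouse, aligned to GRCm38 (mm10) with STAR per the submitters' notes. The counting program and its use of strand are not given in the sources used here. Groups came from the sample titles. Symbols, coordinates, and merged exon lengths came from GENCODE M21, which matched 21858 of 21935 genes, and promoters from RefSeq (GRCm38.p6).

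Counts were filtered with filterByExpr, scaled by TMM, and tested across 12580 genes in 1 edgeR 4.0.16 quasi-likelihood model of 3 groups (R 4.3.3), with Benjamini-Hochberg adjustment and a threshold of 0.05. CPM uses TMM-scaled library sizes, and ± on fold changes is the standard error. DESeq2 1.42.0, limma-voom (limma 3.58.1), other scalings and filters, fits of 2 groups, blocks, and leaving out mice were alternatives. The model was tested on simulated data. Correlations used exact permutation over all pairings (numpy 2.4.6).

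The members and gene lists were chosen with earlier results of these data known. Members passing in any comparison, with *Srebf1* and *Mlxipl*, are given in full, and of other lists at most 6 passing genes with the largest fold change, beside *Pdha1*, and 1 passing gene is not reported here. The genes whose promoters are printed were picked after their values were seen, as were the relations with *Fasn* and *Srebf1* and the shared 75-base windows. The closest pair of mice within a group differed by a chi-square of 2.97 per gene, so each was counted as a sample.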

Additional observations from a re-analysis of the deposited data

Results flagged for a closer look

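In each group the gap between the highest or lowest mouse and the nearest other, divided by the group's range of log2 CPM, was set against Dixon's 95% value of 0.466 for 10 mice and 0.493 for 9. Of 99 pairs of gene and group, 9 held such a mouse (9.09%), where chance flags about 1 in 20. In the vehicle group it was *Elovl3* at 20.6 CPM in replicate 8, against 9.50 in the next mouse. In the OCA group replicate 8 was lowest for *Elovl3* at 0.372 CPM (next 3.45) and highest for *Scd2* at 172 CPM (next 67.7). Also in the OCA group, *Fads1* was lowest at 323 CPM in replicate 3 (next 501) and *Lpin3* highest at 10.8 CPM in replicate 4 (next 6.71). In the INT-787 group replicate 8 was lowest for *Scd1* at 9972 CPM (next 21597) and for *Gpam* at 119 CPM (next 209). *Slc25a1* was lowest at 259 CPM in INT-787 replicate 5 (next 302) and *Aacs* lowest at 31.3 CPM in INT-787 replicate 4 (next 57.3). Without INT-787 replicate 8, 6 members were higher with INT-787 than with OCA in place of 4, and *Scd1* passed with OCA.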

How the results depend on the processing

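In 10 alternative settings and 28 fits that each left out 1 mouse, no call changed direction, and the number of members passing in each direction stayed within 1.5 times the reported count in every setting that left out no single mouse. The exceptions among single mice were in INT-787 against OCA, where members higher with INT-787 ranged from 2 (without OCA replicate 1 or 6 or INT-787 replicate 1) to 6 (without INT-787 replicate 8), and all genes changed ranged from 443 (without OCA replicate 8) to 888. Members higher with INT-787 than with vehicle numbered 5 to 6 and lower 2 to 3, and members lower with OCA 3 to 5. All genes changed ranged from 2116 to 2733 with INT-787 and from 666 to 936 with OCA. Calls that held in every fit were 7 of 8 with INT-787, 4 of 5 with OCA, and 2 of 4 between the drugs. Members that did not pass changed sign somewhere in 2, 11, and 4 cases. With sets of neighboring sample numbers as a factor, on 26 mice, 9, 7, and 5 members passed. With the replicate number as a block, on 27 mice, 7, 6, and 5 members passed. Under the block *Mogat1*, *G6pdx*, *Fads3*, *Degs1*, and *Taldo1* no longer passed with INT-787 (adjusted p = 0.055, 0.059, 0.060, 0.054, and 0.078), while *Scd1* with OCA (adjusted p = 0.049) and *Agpat3* between the drugs (adjusted p = 0.035) did. Whether the numbers pair mice was not settled. Over 27 pairs of equal number, deviations correlated from -0.26 to 0.50 (median 0.10), with 14 over 0.1. Over 25 pairs from the same set of neighboring sample numbers, the median was 0.14, with 15 over 0.1. Pairs of unequal number were not read for comparison. Upper-quartile scaling moved the share of higher genes among all called between the drugs from 40.8% to 32.2%, and the median of all genes by under 0.1 in each comparison. The replicate block moved that share the other way, to 53.6%. A minimum of 10 counts in every mouse kept 29 of the 33 members. Of 29 calls in the other pathway lists, 13 were lost in at least 1 fit. Scarce members set the limit of depth: *Pnpla3*, *Mogat1*, *Elovl3*, and *Lpin3* lay below 25 CPM in every mouse, and vehicle replicate 6 held 1009593 reads.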

Other observations

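Low or high values gathered in a few mice. Among the vehicle mice, replicate 5 was the lowest for 13 of the 33 members, *Acaca*, *Acacb*, *Me1*, and *Fads2* among them, and replicate 2 was the highest for 12. Among the OCA mice, replicate 8 was the lowest for 12 members, with *Srebf1*, *Mlxipl*, *Fasn*, *Acaca*, and *Me1* in that count, and replicate 6 for 11, with *Acly*, *Acss2*, *Acacb*, and *Elovl6*. The median over members of log2 CPM minus the group's median was -0.41 in OCA replicate 6 and -0.40 in OCA replicate 8. INT-787 replicate 1 was the highest for 12 members, including *Fasn*, *Acaca*, and *Acly*. INT-787 replicate 8 was the lowest for 13, including *Scd1*, *Srebf1*, and *Me1*, yet the highest for *Thrsp*, *Acss2*, and *Elovl3*. The median coefficient of variation between mice over the members was 23.1% against 18.7% over all tested genes.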
